A study of Mus musculus with 6 samples.

Results

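Cholesterol synthesis and uptake genes were measured with RNA sequencing of the second heart field region of mouse embryos, a pool of progenitor cells that adds muscle to both ends of the growing heart tube. The members were the rows of the deposited table whose gene symbol was 1 of 30 listed symbols. All 30 were present among 16832 genes, and all 30 passed the filter on low values, with the lowest mean at 54.0 normalized counts (read counts divided by 1 factor per library). They comprised 8 genes of the mevalonate steps, 11 of the later sterol steps, 5 of the sterol sensor that controls them, 4 of uptake and transport inside the cell, and 2 of efflux. The list covers much of the pathway but not every enzyme of it.

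The tissue was microdissected at embryonic day 9.5. The control (CTRL) libraries are labelled Mef2c-Cre, and the gain-of-function (GoF) libraries carried the Hoxb1GOF allele together with Mef2c-Cre, so that both groups carried the Cre transgene. Mef2c-Cre drives Cre recombinase in cells of the second heart field, while the dissected region also holds other cells, in which the allele need not be active. Control replicates 2 and 3 and GoF replicates 1 to 3 have values; the first control sample was not analysed here. Whether each replicate was a separate embryo is not given in the labels, so p-values cover the spread between libraries alone.

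Cells make cholesterol from acetyl-CoA through mevalonate, isoprenoid diphosphates, squalene and lanosterol. When sterols in the endoplasmic reticulum are low, the escort protein SCAP carries the membrane-bound SREBP transcription factors to the Golgi, where they are cut free and switch on synthesis and uptake genes. INSIG proteins hold SCAP back when sterols are high, and excess sterol raises the efflux pumps ABCA1 and ABCG1 through the nuclear receptor LXR. In the embryo, cholesterol is a membrane component and is also attached to Hedgehog ligands, and inherited loss of late sterol enzymes causes malformations.

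Reads counted in the genes of the deposited table, recovered from its normalized counts, came to 34260116 to 44384354 per library. Of these counted reads, mitochondrial genes took 44.4% and 50.7% in the controls and 35.7% to 37.4% in GoF. Hoxb1 was at 751.6 and 610.2 normalized counts in the control libraries, against 1021.3, 1003.0 and 1041.2 in the GoF libraries (log2 fold change 0.59, SE 0.12, limma adjusted p = 0.0147). It no longer passed when GoF replicate 1 was left out (adjusted p = 0.0601) or when a trend on the GC content of transcripts was taken out (0.251). Of 9 second heart field markers 8 were in the table, with summed counts of 9294 to 10577 in the controls and 10234 to 10567 in GoF. Among them Isl1, a defining factor of these progenitors, was at 707.5 to 731.2 in all libraries, whereas Fgf10, a growth factor gene of the field, was at 653.1 and 557.8 in the controls and 315.8, 288.8 and 356.8 in GoF. Fgf10 fell (log2 fold change -0.92, limma adjusted p = 0.00823), and the other 7 did not pass. Gata4 differed between the controls, at 2027 and 965.9, against 2212 to 2383 in GoF. The controls differed in liver bud markers, a tissue with high sterol output later in life. Of 10 such genes 5 were in the table, with summed counts of 750.4 in control replicate 2, 18.7 in control replicate 3 (Ttr, Hnf4a and Fgb at 0) and 384.2 to 556.6 in GoF. Summed neural markers (7 of 8 in the table) were at 11271 and 11650 in control replicates 2 and 3 and 9569 to 10060 in GoF. Nes, the largest part of this sum, fell (log2 fold change -0.31, limma adjusted p = 0.0412). Tubb3 rose from low counts (2.23, limma adjusted p = 0.0362), and the other 5 did not pass. Once the GC trend was taken out, Nes and Sox1 were called lower and Tubb3 was not called. Summed neural crest markers (6 of 6) were at 1350 and 2332 against 2373 to 2628, and blood markers (7 of 8) at 11068 and 6898 against 13800 to 17661. Tfap2a was the neural crest marker called, as higher, and none passed with the GC trend removed. The median log2 fold change of that list was 0.68 before this removal and 0.11 after it. Among the blood markers Hbb-y and Hba-x were called higher. After the removal only Alas2 of them passed, as lower, and their median went from 0.45 to 0.53. Endoderm and epithelial markers (8 of 8) were at 3249 and 3088 against 3590 to 3903. Within this sum Krt18 (log2 fold change 1.06), Krt8 (0.89) and Cdh1 (0.41) rose, while Nkx2-1, a gene of low counts, fell (-1.69, limma adjusted p = 0.0297). Of these 8 only Nkx2-1 was called once the GC trend was taken out, again as lower (0.0309). Endothelial markers (7 of 7) were at 10950 and 8929 against 8173 to 8977, of which Erg was at 4855 and 3545 against 1630 to 2345. Erg and Emcn were called lower, and Cdh5, a junction protein of endothelium, was called higher (log2 fold change 0.61, limma adjusted p = 0.00781). With the GC trend removed only Erg of these 7 passed, as lower. With Erg, which fell, left out of the sum the order turned, at 6095 and 5383 against 6543 to 6641. Cardiomyocyte markers (8 of 8) were at 59574 and 69306 against 66670 to 67766, mostly from Actc1, and within this sum Myl7 (0.75) and Tnni1 (1.22) rose while Myl2 (-1.21) and Ryr2 (-0.28) fell. After removal of the GC trend Cdh5 (adjusted p = 0.0737) and Myl7 (0.0818) did not pass, and Ryr2 passed in 1 of the 5 fits that leave out a library. In the fit of all libraries without the GC trend, Tnni1 was the 1 cardiomyocyte marker called higher. There 4 of the 8 were called lower, namely Myl2, Ryr2, Myh7 and Myh6. The median log2 fold change of these markers was 0.09 before that removal and -0.23 after it. No measured gene of these lists other than the liver genes was at 0 in a library. In bulk tissue, fewer cells of a type and less RNA per cell cannot be told apart, and the part of these cell types in the results that follow was not tested.

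Of the 19 enzyme genes of cholesterol synthesis 8 were higher in GoF and 11 did not pass, and the efflux pump gene Abca1 was lower. Of the 30 members 11 rose, 1 fell and 18 did not pass (limma on log2(normalized count + 1), Benjamini-Hochberg adjusted p under 0.05 over 16794 genes). The 11 were 36.7% of the members, beside 12.2% of all genes tested that were called higher, and the 1 that fell stands beside 10.9% called lower. The members' median log2 fold change was 0.32, against -0.01 over all genes tested. Among the members that rose, Mvd and Mvk, enzymes of the mevalonate steps, had the largest folds (3.95 and 2.65), followed by Dhcr7, the reductase of the last step (2.11). Srebf2, which encodes the SREBP factor that mainly serves cholesterol genes, rose 1.94-fold. Every GoF library was above both controls for 19 members (63.3%, against 27.3% of all genes tested), every GoF library was below both for Abca1 (27.6% of all genes tested), and the groups overlapped for 10.

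**Figure D1:**
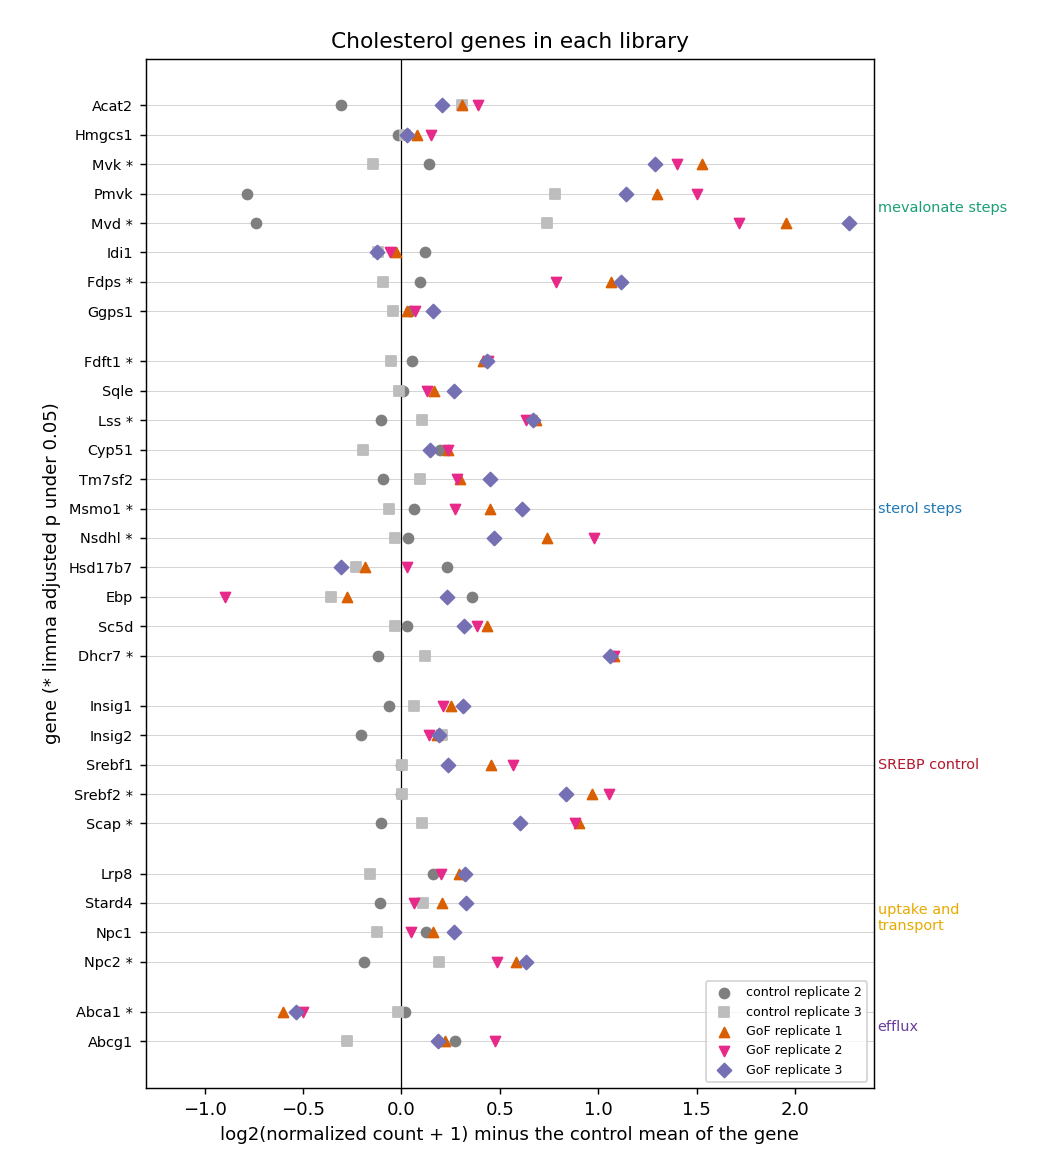
Each row is a gene of the list, sorted by role, and each symbol a library, placed on the horizontal axis by its log2(normalized count + 1) minus the mean of the 2 controls. The 3 GoF symbols stand to the right of both controls for 19 genes, to the left for Abca1, and mixed with the controls for 10; asterisks mark the 12 genes past the limma threshold.

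Fewer members passed when a trend on base composition (GC content) was taken out, or when any 1 GoF library was left out. Across all 16266 genes with a known composition, the log2 fold change rose with the GC content of the longest transcript (Spearman rho 0.56), and across the 30 members it did so too (rho 0.67, Pearson r 0.67; a description, since all points come from the same 5 libraries). Among the tenth of genes richest in GC, from 56.9%, 40.3% of all genes were called higher. Pmvk, Mvd, Srebf1, Srebf2 and Scap lie there, and 3 of these 5 were called higher. In the tenth from 44.6% to 46.5%, 3.26% of all genes were called higher. It holds 5 members, of which Nsdhl and Msmo1 were called higher and Cyp51, Insig2 and Npc1 were not. With a smooth trend on GC content taken out of each library, 7 members were higher and 1 lower, beside 3.11% and 3.33% of all genes, and the members' median stayed at 0.32. Of the 12 original calls 6 passed again in the same direction (Mvk, Lss, Msmo1, Nsdhl, Dhcr7 and Abca1), and Ggps1 and Sc5d passed as additional genes. Without GoF replicate 1, 5 members rose and none fell in limma (4.04% and 3.3% of all genes), with 1 member, Abca1, lower at an unadjusted p under 0.05; other tools were not run in that setting. The 5 were Mvk, Lss, Nsdhl, Dhcr7 and Srebf2. The folds moved little in that setting, with a median of 0.34 over the members and log2 fold changes of 0.95 for Fdps, 1.99 for Mvd and -0.52 for Abca1. With both changes at once no member passed in limma, the only tool run in that setting, where 0.32% of all genes were called higher and 0.406% lower and 13 members had an unadjusted p under 0.05; the members' median log2 fold change was again 0.32. With control replicate 2 left out, log2 fold changes were 0.95 for Srebf2, 1.24 for Mvd and -0.53 for Abca1. With control replicate 3 left out, they were 0.96, 2.72 and -0.56. Each of these fits keeps 1 control. Without GoF replicate 2 or GoF replicate 3, 7 members rose and 1 fell. Of all 16794 genes tested, 5402 and 5719 had an unadjusted limma p under 0.05 in these fits, against 6540 with all libraries. Those counts hold both directions and no adjustment, so they are not a share to set beside the members' calls. The 7 and 1 are therefore given as a description of the fits only.

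**Figure D2:**
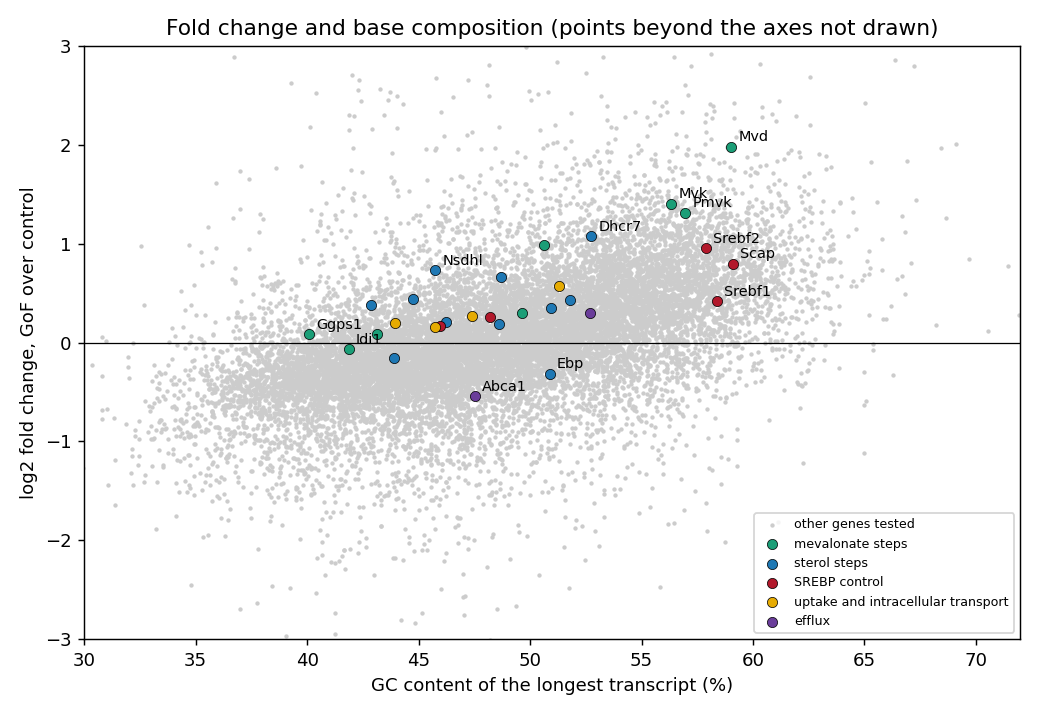
Each point is a gene, plotted by GC content (longest transcript, percent) on the horizontal axis and its log2 fold change (GoF over control) on the vertical axis; grey points are other genes tested and coloured points are the 30 members by role. The cloud climbs to the right, Mvd, Mvk, Pmvk, Srebf2, Scap and Srebf1 lie at the GC-rich end, Nsdhl (log2 fold change 0.73) lies near 45.8% GC, and Abca1 (-0.55) lies below 0.

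Within the enzyme genes of the mevalonate steps, 3 of 8 rose and 5 did not pass. Mvk, the kinase that phosphorylates mevalonate (mm10 chromosome 5, 114444269 to 114460591), had normalized counts of 76.2 and 62.4 in the control libraries, against 201.0, 183.6 and 169.9 in the GoF libraries. The lowest GoF library was above the higher control by a wide margin. This 2.65-fold rise (log2 change 1.41, SE 0.21, limma adjusted p = 0.00659) was called without any 1 of the 5 libraries. It was smaller with the GC trend removed (0.91, adjusted p = 0.0499), at the edge of the threshold. Mvd, the decarboxylase that makes isopentenyl diphosphate (chromosome 8, 122433601 to 122443422), was at 10.6 and 31.2 counts in the control libraries, against 73.8, 62.3 and 92.2 in the GoF libraries. The controls differed widely from each other, and the groups did not overlap. The rise was 3.95-fold (log2 fold change 1.98, SE 0.47, adjusted p = 0.0224), and it was lost without GoF replicate 1 (0.0532), GoF replicate 2 (0.0532) or GoF replicate 3 (0.0655), or once the GC trend was removed (log2 fold change 1.35, adjusted p = 0.107). Fdps, farnesyl diphosphate synthase, was at 72.7 and 63.6 counts in the control libraries, against 143.6, 118.1 and 148.9 in the GoF libraries. All GoF libraries were higher, 1.99-fold on average (log2 fold change 0.99, SE 0.23, adjusted p = 0.0210). That call was lost without GoF replicate 1 (0.117) or GoF replicate 3 (0.0656), or once the GC trend was removed (0.0627), at log2 fold changes of 0.95, 0.93 and 0.86. Part of Fdps, 26.7% of its exon bases, is shared with the same-strand gene model Gm43738, which leaves its level uncertain.

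The other 5 genes of these steps did not pass, and they include the most abundant one. Hmgcs1, the synthase that joins acetoacetyl-CoA and acetyl-CoA and a standard SREBP target, was at 3507 and 3603 counts in the control libraries, against 3757, 3942 and 3632 in the GoF libraries. Its GoF libraries lay just above the controls, with a log2 fold change of 0.09 (SE 0.08, adjusted p = 0.452). Ggps1, which makes the geranylgeranyl group attached to small GTPases, was at 1093 and 1031 counts in the control libraries, against 1081, 1112 and 1186 in the GoF libraries. The groups overlapped (log2 fold change 0.08, adjusted p = 0.561), and only with the GC trend removed was it called, as higher (0.44, SE 0.09, adjusted p = 0.0362). Pmvk, the next kinase after Mvk, was at 24.6 and 74.9 counts in the control libraries, against 96.3 to 123.8 in the GoF libraries (log2 fold change 1.31, adjusted p = 0.0615). It passed without control replicate 3 (0.00578). Acat2, the thiolase of the first step, and Idi1, the isomerase, overlapped between the groups, at log2 fold changes of 0.30 and -0.07. Acat2 passed without control replicate 3 (adjusted p = 0.0105) and was at 0.00 without control replicate 2. Acat2 has a copy, Acat3, with 97.7% identity over 1477 bases, and Acat3 was at 34.0 to 85.7 counts in the same libraries.

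Of the 11 sterol enzyme genes 5 rose and 6 did not pass. Dhcr7, which reduces the last precursor to cholesterol (chromosome 7, 143823145 to 143848410), was at 351.7 and 415.5 counts in the control libraries, against 811.1, 810.5 and 799.3 in the GoF libraries. The GoF libraries were nearly equal (SD 6.61 counts, n = 3), and both controls were far below. The rise was 2.11-fold (log2 fold change 1.08, SE 0.12, limma adjusted p = 0.00389) and remained with the GC trend removed (0.81, adjusted p = 0.0132). Lss, lanosterol synthase, which closes the sterol rings (chromosome 10, 76531588 to 76557138), was at 1209 and 1398 counts in the control libraries, against 2090, 2019 and 2070 in the GoF libraries. All GoF libraries were above both controls. The 1.58-fold rise (log2 change 0.66, SE 0.10, adjusted p = 0.00602) hardly moved with the GC trend removed (0.65, adjusted p = 0.0136). Nsdhl, a dehydrogenase that takes part in removing methyl groups from lanosterol (chromosome X, 72918557 to 72958514), was at 854.7 and 817.4 counts in the control libraries, against 1398, 1647 and 1158 in the GoF libraries. It varied within GoF more than the other genes called in this group, with replicate 2 highest, yet did not overlap the controls. The rise was 1.66-fold (log2 fold change 0.73, SE 0.15, adjusted p = 0.0146), and the log2 fold change was 0.86 after removal of the GC trend (adjusted p = 0.0226). Calls for Dhcr7, Lss and Nsdhl held without any 1 of the 5 libraries.

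Smaller rises were seen at the entry to the sterol branch and at a step of demethylation. Fdft1, squalene synthase, was at 1328 and 1237 counts in the control libraries, against 1709, 1741 and 1735 in the GoF libraries. The GoF libraries were tightly grouped above the controls (log2 fold change 0.43, SE 0.09, adjusted p = 0.0155). The call was lost without GoF replicate 1 (0.0900) or GoF replicate 2 (0.0519), or once the GC trend was removed (0.23, adjusted p = 0.160), and 18.3% of the exon bases of Fdft1 overlap the opposite-strand gene Ctsb, which was at 782.1 and 837.3 counts in the control libraries, against 1024 to 1114 in the GoF libraries. Msmo1, a methylsterol oxidase that takes part in demethylation, was at 963.8 and 881.0 counts in the control libraries, against 1258, 1114 and 1408 in the GoF libraries. The groups did not overlap (log2 fold change 0.44, SE 0.12, adjusted p = 0.0377, and 0.62 with adjusted p = 0.0271 once the GC trend was removed). The Msmo1 call held without GoF replicate 2 and was lost without control replicate 2 (0.0521), control replicate 3 (0.0938), GoF replicate 1 (0.129) or GoF replicate 3 (0.0955). Sc5d, a sterol desaturase, was at 446.7 and 428.0 counts in the control libraries, against 590.6, 571.9 and 544.5 in the GoF libraries. It was just outside the threshold (log2 fold change 0.38, SE 0.12, adjusted p = 0.0550) and passed with the GC trend removed (0.62, adjusted p = 0.0276). The remaining 5, Sqle, Cyp51, Tm7sf2, Hsd17b7 and Ebp, had log2 fold changes from -0.31 to 0.34 and did not pass. Sqle, squalene epoxidase and a control point of the pathway, was at 2448 and 2415 counts in the control libraries, against 2732, 2662 and 2923 in the GoF libraries (0.19, adjusted p = 0.139). Cyp51, the lanosterol demethylase, overlapped between the groups (0.21) and passed without control replicate 2 (adjusted p = 0.0187). The reductase gene Tm7sf2 was at 0.34, the ketosteroid reductase gene Hsd17b7 at -0.15 and the sterol isomerase gene Ebp at -0.31.

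The enzyme genes differed widely in level. In normalized counts per kilobase of the longest transcript, the control means were highest for Hmgcs1 (1026), Cyp51 (800.4), Acat2 (693.9) and Sqle (544.3), and none of these passed. The lowest were Mvd (11.4), Fdps (23.1), Mvk (29.1) and Ebp (36.1), and the first 3 of these rose, to 41.5, 46.3 and 77.7 in GoF. In GoF each of these 3 was still far below Hmgcs1, at 1090 counts per kilobase. In control libraries the levels of neighbours such as Tm7sf2 (36.9 and 42.1) and Ebp (45.1 and 27.2) crossed, so their order is not resolved. Summed over the 11 sterol enzyme genes, the counts were 12623 and 11401 in the controls and 15188 to 15514 in GoF.

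**Figure D3:**
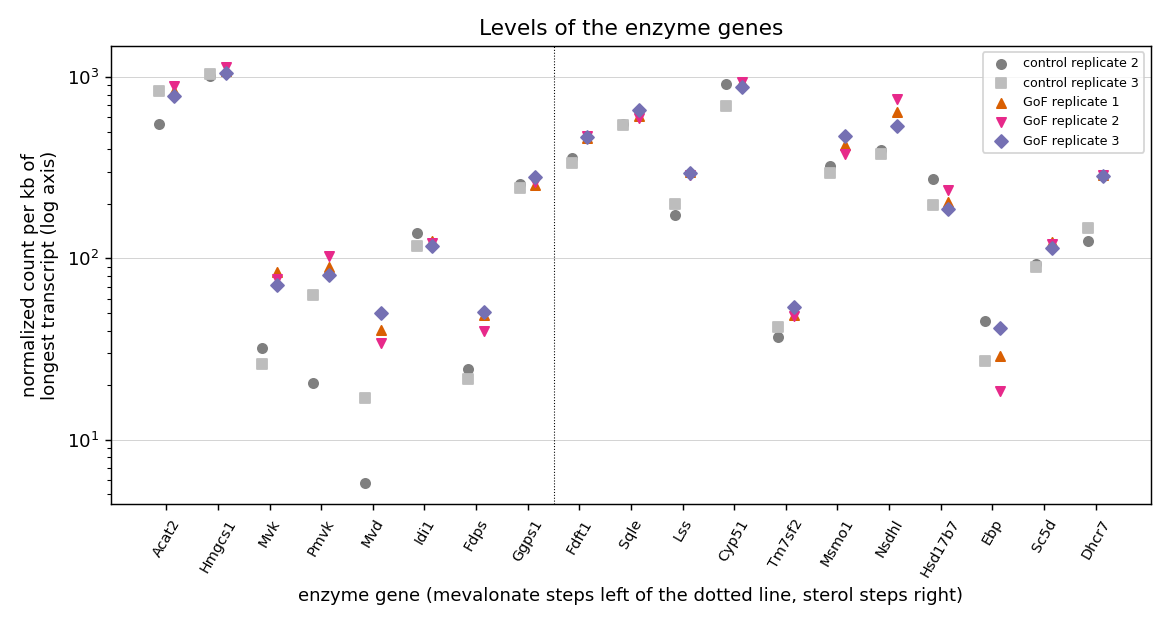
Enzyme genes stand in pathway order on the horizontal axis, with normalized counts per kilobase of the longest transcript on a logarithmic vertical axis and 1 symbol per library. Mvk, Mvd and Fdps are the low points of the early steps and lie higher in the GoF libraries, whereas Hmgcs1, Cyp51 and Sqle are near the top in both groups.

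Of the 5 genes of the sterol sensor, 2 rose and 3 did not pass. Srebf2 (chromosome 15, 82147181 to 82205379) was at 949.7 and 954.6 counts in the control libraries, against 1867, 1977 and 1701 in the GoF libraries. The controls were nearly equal and all GoF libraries were far above. The 1.94-fold rise (log2 change 0.95, SE 0.10, limma adjusted p = 0.00379) was called without any 1 of the 5 libraries. With the GC trend removed it was 0.37 (SE 0.09) and missed the threshold (adjusted p = 0.0545). Scap, the escort of SREBP proteins, was at 216.9 and 250.8 counts in the control libraries, against 436.8, 431.1 and 354.4 in the GoF libraries. It was 1.74-fold higher (log2 fold change 0.80, SE 0.16, adjusted p = 0.0149), and this did not pass once GoF replicate 1 (0.0784) or GoF replicate 2 (0.0533) was left out. With the GC trend removed its log2 fold change was 0.16 (adjusted p = 0.504), and the GC content of the Scap transcript, 59.1%, is the highest of the 30. Srebf1, whose product mainly serves fatty acid genes, was at 202.8 and 203.4 counts in the control libraries, against 278.9, 301.7 and 239.5 in the GoF libraries. All GoF libraries were above the controls, but the gene did not pass (0.42, adjusted p = 0.108), and its direction turned with the GC trend removed (-0.18, adjusted p = 0.488).

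Neither INSIG gene passed. Insig1, itself a target of SREBP, was at 1120 and 1223 counts in the control libraries, against 1394, 1354 and 1453 in the GoF libraries. The GoF libraries were all higher by a small margin (log2 fold change 0.26, SE 0.10, adjusted p = 0.0881), and it passed without control replicate 3 (0.0409). Insig2 was at 418.6 and 556.6 counts in the control libraries, against 546.5, 531.4 and 551.8 in the GoF libraries. Control replicate 3 was above all GoF libraries, so the groups overlapped (0.17, SE 0.15, adjusted p = 0.430).

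**Figure D4:**
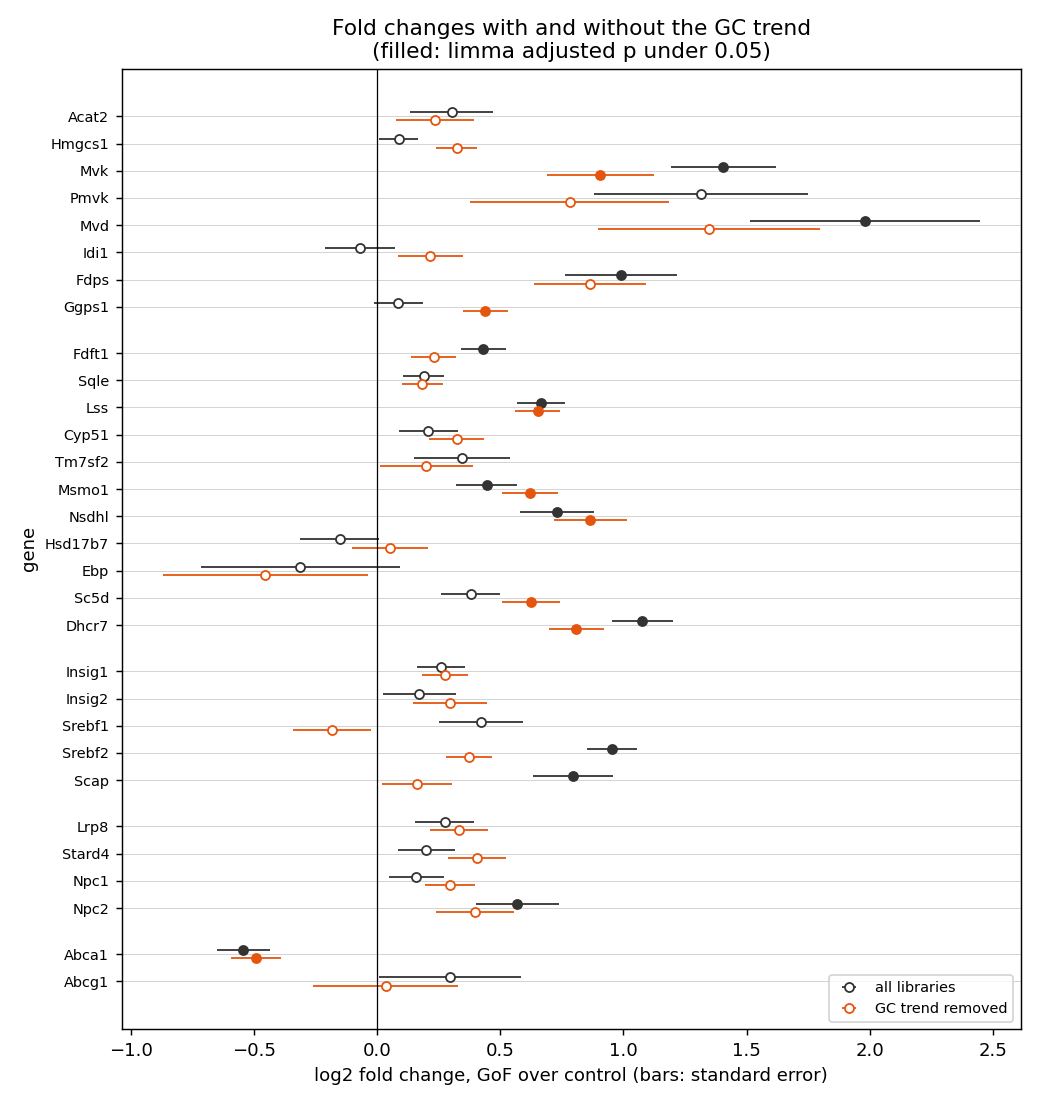
Log2 fold changes (GoF over control, bars for the standard error) of the 30 genes are drawn from all libraries in black and with the GC trend removed in orange, filled where the limma adjusted p was under 0.05. Lss, Nsdhl, Dhcr7, Msmo1, Mvk and Abca1 are filled in both; Srebf2, Scap, Mvd, Fdps, Fdft1 and Npc2 are filled in black only, and Ggps1 and Sc5d in orange only.

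Uptake and transport inside the cell were covered by 4 genes, for lipoprotein binding, lysosomal export and carriage in the cytosol. Of these, Npc2 rose and 3 did not pass. Npc2, the soluble lysosomal protein that hands cholesterol to NPC1, was at 205.2 and 267.0 counts in the control libraries, against 350.7, 328.4 and 364.1 in the GoF libraries. The groups did not overlap (log2 fold change 0.57, SE 0.17, adjusted p = 0.0455). This call held only without control replicate 3 among the single omissions, was lost without control replicate 2 (0.0955) or GoF replicates 1 (0.182), 2 (0.0904) or 3 (0.111), and after removal of the GC trend the adjusted p was 0.160. Npc1, its membrane partner, had a log2 fold change of 0.16, the sterol carrier gene Stard4 0.20, and Lrp8, a lipoprotein receptor that also binds reelin, 0.27. Lrp8 passed without control replicate 2 (adjusted p = 0.0270).

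Efflux went the other way for the pump of whole-cell cholesterol export. Abca1 (chromosome 4, 53030787 to 53159895) was at 911.0 and 891.0 counts in the control libraries, against 592.7, 637.4 and 622.2 in the GoF libraries. Every GoF library was below both controls. Abca1 fell to 0.685 of the control level (log2 fold change -0.55, SE 0.11, limma adjusted p = 0.0132). The value was -0.49 with the GC trend removed (adjusted p = 0.0361), and the call was lost without GoF replicate 1 (0.0896). Abcg1, the partner pump that loads lipoprotein particles, was at 68.0 and 46.2 counts in the control libraries, against 65.6, 78.5 and 63.9 in the GoF libraries, overlapped between the groups and did not pass (0.30, SE 0.29, adjusted p = 0.478).

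Within groups, the members did not follow 1 library. Between GoF replicates 2 and 3, 14 of 30 were higher in replicate 3 and 16 in replicate 2, and the median log2 difference of replicate 3 from replicate 2 was -0.01. All 4 genes of uptake and transport were higher in GoF replicate 3. GoF replicate 1 lay between the other GoF libraries for 21 of 30. Between the controls, 16 members were higher in replicate 2 and 14 in replicate 3, and all 5 sensor genes were higher in control replicate 3. Set against the control mean, the median member stood at a log2 difference of 0.30, 0.33 and 0.32 in GoF replicates 1, 2 and 3.

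Promoters were read because SREBP acts beside the factors NF-Y and Sp1 at synthesis genes. RefSeq windows (GRCm38.p6, the build of mm10), from 250 bases before to 50 after a start, matched 24 of the 30 members. Windows were searched on both strands for the NF-Y box, which reads CCAAT. The core searched for the sterol regulatory element, to which SREBP binds, was TCACNCC. The Sp1 box was searched as GGGCGG. Neighbouring matches of the NF-Y box and the sterol element core may share end letters. The NF-Y box was found for 20 of the 24 members and for 41.1% of 27025 genes in the table of windows, which includes noncoding genes. The Sp1 box was found for 21 of the 24 and for 38.2% of genes, and the sterol element core for 6 of the 24 and for 17.6%. Of the 6 with this core (Acat2, Hmgcs1, Insig2, Lrp8, Msmo1 and Srebf2), 2 rose, Msmo1 and Srebf2. Among all 30 members 11 rose (36.7%), a share near that of these 6, so no contrast is drawn. A match is a description of letters and shows no binding.
Shown are the 200 bases before the RefSeq start, on the plus strand, of 4 genes called without any 1 library and with a single start in the table, and of Hmgcs1, which did not pass. The gene coordinates given above come from another annotation, and its starts can differ. For Srebf2 and Lss the end of the stretch lies inside those coordinates. Capitals mark the NF-Y box and the core of the sterol element on either strand.
Mvk, chr5:114444069-114444268: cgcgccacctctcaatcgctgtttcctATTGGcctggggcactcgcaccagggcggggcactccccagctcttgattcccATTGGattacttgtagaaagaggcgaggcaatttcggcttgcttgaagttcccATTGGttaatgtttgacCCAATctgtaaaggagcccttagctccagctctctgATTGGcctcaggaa
Lss, chr10:76531405-76531604: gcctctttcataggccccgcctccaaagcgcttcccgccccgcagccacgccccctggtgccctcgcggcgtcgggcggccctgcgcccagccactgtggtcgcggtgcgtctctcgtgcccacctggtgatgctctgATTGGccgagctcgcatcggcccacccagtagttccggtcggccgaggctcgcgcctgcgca
Nsdhl, chrX:72918321-72918520: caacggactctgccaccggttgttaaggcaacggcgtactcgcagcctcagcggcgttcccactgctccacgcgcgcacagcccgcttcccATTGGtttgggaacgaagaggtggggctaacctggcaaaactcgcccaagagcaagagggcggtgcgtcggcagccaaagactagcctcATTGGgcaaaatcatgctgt
Srebf2, chr15:82147069-82147268: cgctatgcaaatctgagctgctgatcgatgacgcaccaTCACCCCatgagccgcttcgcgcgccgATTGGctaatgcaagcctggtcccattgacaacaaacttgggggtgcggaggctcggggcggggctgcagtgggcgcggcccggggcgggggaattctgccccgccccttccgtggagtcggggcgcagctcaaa
Hmgcs1, chr13:119690151-119690350: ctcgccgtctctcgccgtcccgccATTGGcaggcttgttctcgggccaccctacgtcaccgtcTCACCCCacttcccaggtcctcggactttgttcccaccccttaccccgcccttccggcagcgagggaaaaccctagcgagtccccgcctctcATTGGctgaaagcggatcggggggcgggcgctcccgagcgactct
These stretches hold 5 matches of the NF-Y box for Mvk, 1 for Lss, 2 for Nsdhl, 1 for Srebf2 and 2 for Hmgcs1. The sterol element core was matched in Srebf2 and Hmgcs1, 1 time each, of which the first rose and the second did not pass. With the GC trend removed neither passed, at log2 fold changes of 0.37 for Srebf2 and 0.32 for Hmgcs1.

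Neighbouring lipid pathways were read from 4 lists of genes that are not members. Of 14 genes of fatty acid synthesis and desaturation 5 rose, none fell in limma, edgeR or DESeq2 (0 lower at an unadjusted limma p under 0.05) and 9 did not pass, with a median log2 fold change of 0.38. The 5 were 35.7% of the list, beside 12.2% of all genes. Scd2, a desaturase, was at 11199.7 and 11765 counts in the control libraries, against 15535, 15482 and 15736 in the GoF libraries (0.44, limma adjusted p = 0.00676). Scd1, a related desaturase, rose by 0.72 (adjusted p = 0.00845) and Fads2, which desaturates polyunsaturated chains, by 0.63 (0.00776). With the GC trend removed, 2 of the 14 (14.3%, beside 3.11% of all genes) stayed past the threshold, Scd1 (0.0164) and Scd2 (0.0177). Fads2 was at 0.134 there. Of 8 genes of SREBP cleavage and turnover 1 rose and 2 fell (12.5% and 25.0%, beside 12.2% and 10.9% of all genes), and after removal of the GC trend 0 passed in limma (2 at an unadjusted p under 0.05). Mbtps1, the first protease that cuts SREBP, was at 0.41 (adjusted p = 0.0480), a call lost without each library other than control replicate 3. Sec24a, a coat protein of vesicles that leave the endoplasmic reticulum, and Rnf139, a ubiquitin ligase, were at -0.31 and -0.39, calls lost without any 1 GoF library.

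Of 11 genes of the isoprenoid branches 2 rose and 2 fell, 18.2% each way and near the 12.2% and 10.9% of all genes. Icmt, which methylates prenylated proteins, rose 2.23-fold (log2 fold change 1.16, limma adjusted p = 0.00582) and passed with the GC trend removed (0.0373). Pdss1, which makes the side chain of coenzyme Q, fell by 0.54 on the log2 scale (adjusted p = 0.0117). It did not pass with GoF replicate 1 left out (0.0633) or once the GC trend was removed (0.378). Among 21 measured genes of 23 for other lipoprotein receptors and cholesterol handling, 5 rose (23.8%, beside 12.2% of all genes) and 16 did not pass. Scarb1, a receptor for high-density lipoprotein, was at 260.3 and 219.6 counts in the control libraries, against 431.7, 419.8 and 522.6 in the GoF libraries (0.93, adjusted p = 0.00968, and 0.0241 after removal of the GC trend). It was above both controls in all GoF libraries. Nr1h2, which encodes an LXR receptor, rose by 1.35 (adjusted p = 0.00713, and 0.100 after removal of the GC trend), and Stard3, a sterol transporter of late endosomes, by 1.23 (0.0155, lost without GoF replicate 1 at 0.0739, without GoF replicate 2 at 0.0602 and after removal of the GC trend at 0.107).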

How the data were processed

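Amplified cDNA from 2 ng of total RNA, made with random and poly-T primers, was sequenced, with 100 ng used for each library, per the labels' protocols. Per the submitters' processing notes, reads were made with bcl2fastq 2.17.1.14 and the tools STAR 2.5.2, HTSeq and DESeq2 and the build mm10 were used. Which annotation, strand setting and filters applied is not given in the sources used here, so overlapping and antisense genes cannot be told apart. The authors' deposited signal is, per the file headers and the values, the count of reads over a library's own factor: 100% of values were whole multiples of 1 step within 0.001. The p-value, score and log2 fold change of the authors' deposited table were not tested further; by its adjusted p 11 members were higher and 1 lower.

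Limma 3.58.1 in R 4.3.3 (trend and robust, no covariate, two-sided) was run on log2(normalized count + 1) of the 16794 genes whose mean was 10 or more, with calls at an adjusted p (Benjamini-Hochberg) under 0.05. Fold changes are differences of means on this scale. The added 1 shrinks the fold of a gene of low counts, but 1 low library pulls a mean of logs down. The log2 fold changes of Mvd and Pmvk were 1.98 and 1.31 here, against 1.87 and 1.14 in the authors' deposited table. The whole reads were recovered and tested with edgeR 4.0.16 (quasi-likelihood), which called 3798 genes, and DESeq2 1.42.0, which called 4453. For the GC trend, a library's differences from gene means were smoothed over GC content (lowess, span 0.3) and the curve was subtracted; this also takes out true change that follows GC content. GC content was taken from the longest transcript of a gene in GENCODE M21, matched by symbol for 16302 genes (96.9%). Coordinates and lengths come from that annotation (GRCm38, the same as mm10). The main limma fit was also run on simulated counts that held no GC trend, which says nothing about calls that change with that trend. Overlapping exons and copies (at least 90% identity over 300 bases) of the members were looked up in it.

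The members, lists and alternatives were chosen with earlier results of these data known. By the naming rule, every member is named; members called with or without the GC trend and the INSIG and SREBF genes have a value per library; and each other list has up to 3 called genes of lowest adjusted p, of which 1 is not reported here. The recovered reads of the table's genes came to 34260116 to 44384354 per library, and the total reads sequenced are not given. No counting intervals are given, because amplified reads that carry no molecular identifiers do not count separate molecules. Replicate numbers are shared by the groups for replicates 2 and 3 only; the check of pairing is given with the alternatives.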

Additional observations from a re-analysis of the deposited data

How the results depend on the processing

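Counts of calls moved by over 1.5 times in the following settings, in limma throughout. Removing the GC trend left 506 genes called higher and 542 lower, and 7 members higher; with GoF replicate 1 also left out, these were 52, 66 and 0, with 0 members lower (13 members at an unadjusted p under 0.05; no other tool was run in this setting). Leaving out 1 library gave 678 to 2734 genes higher and 554 to 2552 lower, and 5 to 13 members higher and 0 to 1 lower; a lone control is then assumed to vary like the GoF group. With a replicate block on replicates 2 and 3, 777 genes were higher and 681 lower, and 6 members higher and 0 lower; with the GC trend removed as well, 100, 123, 1 and 0 (14 members at an unadjusted p under 0.05). Across genes, the difference between replicates 2 and 3 in the controls and in GoF correlated at 0.00 (0.02 with the GC trend removed). The block fits also lack GoF replicate 1, so the block and the smaller number of libraries cannot be told apart. Why calls were lost there was not tested. The other settings left the members' count between 9 and 12 higher and 1 lower.

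Over 30 members and 18 alternatives, 461 fold changes kept direction and side of the threshold, 55 lost the call, 10 gained it and 14 changed sign, in each case for a gene not called in either fit. Idi1 was at 0.22 with the GC trend removed and at 0.19 with GoF replicate 1 also left out and in the block with the GC trend removed. In the same 3 settings Hsd17b7 was at 0.052, 0.067 and 0.067 and Srebf1 at -0.18, -0.20 and -0.20. Leaving out 1 library gave Acat2 a range of -0.0041 to 0.61, Idi1 -0.19 to 0.050, Hsd17b7 -0.38 to 0.076, Ebp -0.67 to 0.046 and Insig2 -0.035 to 0.38, where the sign changed without control replicate 2. The cause was not tested. With 2 controls the tests have few degrees of freedom.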
